A study of Mus musculus with 10 samples.

Results

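A set of 6 genes tied to memory B cells and to B cells that use the transcription factor T-bet were followed in mature B cells of mouse bone marrow, and all 6 listed genes were among the 14450 genes of the table. They were chosen by name, as known regulators or surface markers, with earlier results of these data known. The 6 are Tbx21, Zbtb20, Zeb2, Nt5e, Cd38 and Runx2. The cells were sorted by flow cytometry from Chat-GFP mice at steady state, a strain whose reporter labels cells with an active Chat gene, which encodes the acetylcholine-producing enzyme. The 5 Chat+ libraries came from reporter-positive and the 5 Chat- libraries from reporter-negative mature B cells of the same strain and state, with no treatment, and the labels give no age or sex. Nor do they tie libraries to animals, so the tests cover only library-to-library spread, which may be technical. Since each library pools many cells, more cells of a type and more RNA per cell cannot be told apart.

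Memory B cells are long-lived, antigen-experienced cells that persist after a response. A T-bet-dependent branch of them, often called age-associated B cells, appears with age, chronic infection and autoimmunity. In that branch T-bet, encoded by Tbx21, acts with the repressor encoded by Zeb2, while the ectoenzymes encoded by Nt5e (CD73) and Cd38 are used as surface markers to sort mouse memory and naive B cells. Zbtb20 encodes a zinc finger repressor of the BTB family that is expressed in activated B cells and promotes the survival of plasma cells. Runx2 encodes a Runt domain factor best known as the master regulator of bone-forming osteoblasts, and plasmacytoid dendritic cells express it too.

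Levels are counts per 1000000 counts (CPM), and the estimated depth was 21.5 to 30.1 M reads per library (M, 1000000). All 11 B cell markers were listed, with a summed level of 18796 to 21429 CPM in Chat+ and 19819 to 20078 CPM in Chat-. Of the 11, 2 (Ighd and Fcer2a) were lower in Chat+ at an unadjusted limma p under 0.05 (1.01% of all genes). At that level 0 were higher (3.49%). Chat itself had a log2 fold change of 3.64 ± 0.59 (SE; limma adjusted p = 0.087). Chat- replicate 4 stood apart, with 11.9% of its CPM from mitochondrial transcripts against 2.27% to 3.85% in the other 9 libraries. It also had the highest level of 9 of the 11 listed monocyte and macrophage markers and of 7 of the 10 listed stromal, bone and endothelial markers. Results for the 6 genes are therefore given with and without it.

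Of the 6 genes, Zbtb20 was the only one whose groups did not overlap, being higher in every Chat+ library. Nt5e averaged 2.01-fold higher in Chat+ with a wider spread and overlapping groups, and the 4 others had intervals that spanned no difference in both fits. Over all 14450 genes, 0 of the 6 passed an adjusted p of 0.05 in limma, where 1 gene in all did (0.00692%). At an unadjusted p under 0.05, 1 of the 6 was higher (Zbtb20; 3.49% of all genes were) and 0 were lower (1.01% of all genes), where 4.51% of all genes were at that level in either direction. Groups that did not overlap were found for 1 of the 6 with Chat+ above (1.12% of all genes) and for 0 with Chat+ below (0.304%). With Chat- replicate 4 left out, 2 of the 6 were higher at an unadjusted p under 0.05 (Zbtb20 and Nt5e; 5.36% of all genes) and 0 lower (1.97%). There, groups that did not overlap were again found for 1 of the 6 above (2.35% of all genes) and 0 below (0.941%). The median log2 fold change was -0.02 over the 6 and 0.04 over all genes.

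**Figure D1:**
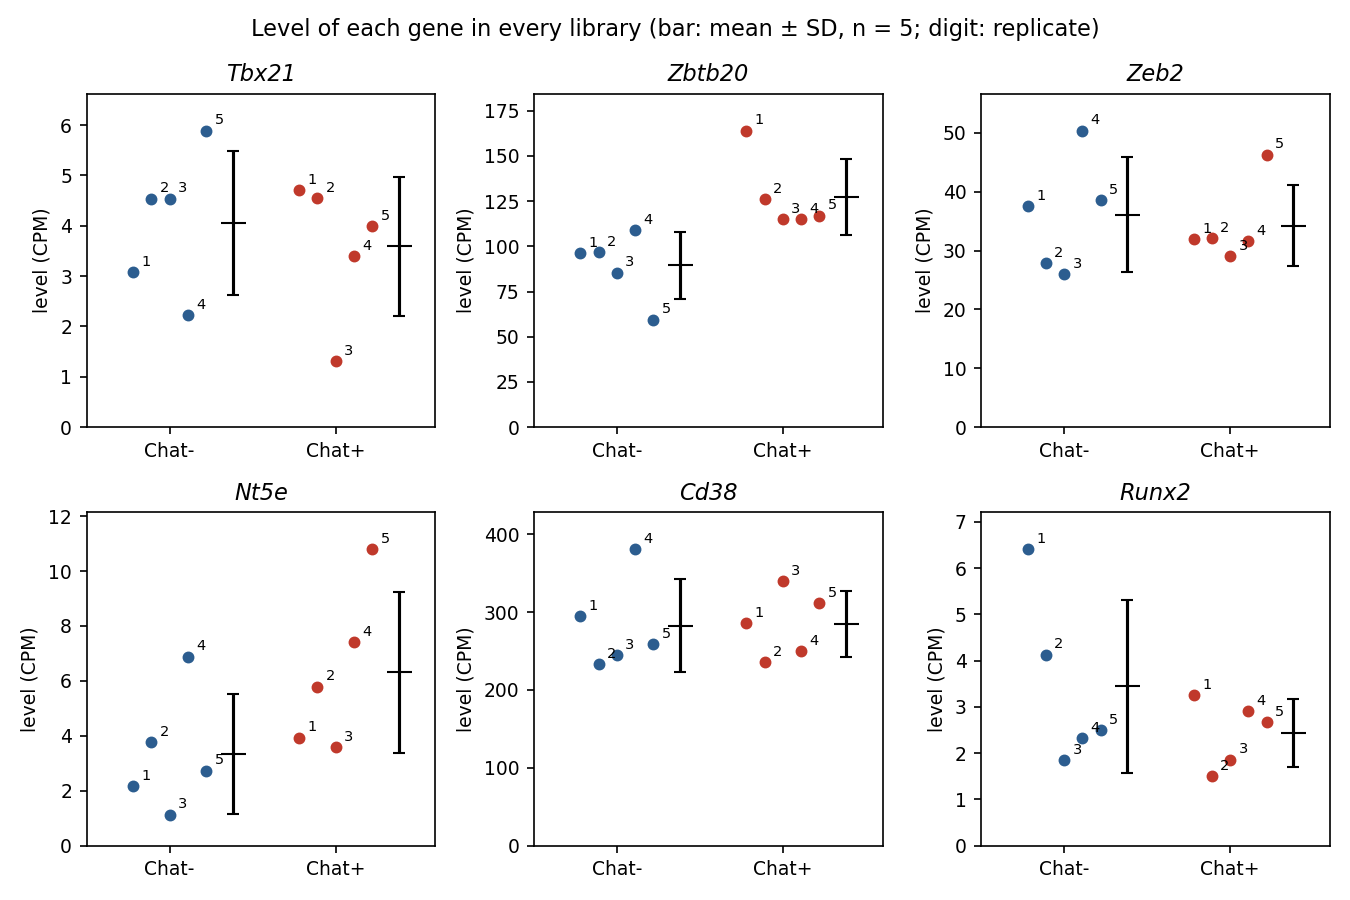
Level of each of the 6 genes in CPM (linear axis from 0) in the 5 Chat- (blue) and 5 Chat+ (red) libraries, with the replicate number at each point and a black bar for the mean ± SD. The lowest Chat+ library for Zbtb20, at 115 CPM, lies above the highest Chat- library, at 109 CPM, while the points of the other 5 genes overlap.

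Per kilobase of its longest coding transcript, Cd38 was the most abundant of the 6, at a mean level of 86.8 CPM per kb over all libraries (71.3 to 116). Zbtb20 (4.03; 2.21 to 6.10 CPM per kb) and Zeb2 (3.85; 2.85 to 5.53 CPM per kb) followed and overlapped each other. Below them lay Tbx21 at 1.54 CPM per kb (0.526 to 2.37) and Nt5e at 1.21 CPM per kb (0.282 to 2.70), which overlapped each other and the low end of the Zbtb20 range. Runx2 was the lowest, at 0.455 CPM per kb (0.234 to 0.991), and its range overlapped those of Nt5e and Tbx21. The annotation gives Zbtb20 12 coding transcripts of 0.439 to 26.9 kb, and with their median length its level would be 131 CPM per kb, above Cd38. The place of Zbtb20 in this order thus depends on the transcript assumed. Runx2 too moved with this choice, to 1.64 CPM per kb with the median length, above Tbx21 and Nt5e, and Zeb2 to 20 CPM per kb.

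Zbtb20 lies on chromosome 16 at 42875881 to 43642602 on the plus strand (GRCm38, GENCODE M21; ENSMUSG00000022708, protein coding). The 5 Chat+ libraries, replicates 1 to 5, held 164, 126, 115, 115 and 117 CPM. The 5 Chat- libraries held 96.4, 96.8, 85.4, 109 and 59.4 CPM in the same order. All 5 Chat+ libraries were thus above all 5 Chat- libraries, with Chat+ replicate 1 far above the rest and Chat- replicate 5 lowest. The means were 128 ± 21.0 and 89.4 ± 18.8 CPM (SD, n = 5), a 1.44-fold higher level in Chat+ (95% confidence interval 1.13 to 1.84). The log2 fold change of 0.53 ± 0.16 (SE) did not pass over all genes (limma adjusted p = 0.69), where Zbtb20 ranked 140th by p. An exact two-sided permutation test of its own values gave p = 0.0079, the smallest that 5 against 5 libraries allow. Groups that do not overlap always give this value, so it adds nothing to the lack of overlap. Leaving out Chat- replicate 4 gave a fold of 1.52 (1.20 to 1.92; limma adjusted p = 0.23), with groups that again did not overlap.

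Since Zbtb20 is tied to plasma cells, their markers are set beside it. The summed level of the 6 listed plasma cell markers was 248 to 518 CPM in Chat+ and 184 to 292 CPM in Chat-. Most of that sum was Mzb1 (means of 182 CPM in Chat+ and 132 in Chat-) and Xbp1 (74.9 and 75.1 CPM). Of the 6, 3 were higher in Chat+ at an unadjusted p under 0.05 (Jchain, Mzb1 and Derl3; 3.49% of all genes) and 0 lower (1.01%). The same 3 were higher without Chat- replicate 4 (5.36%). Sdc1, Prdm1 and Xbp1, the rest of the 6, were alike in both groups. Their log2 fold changes were -0.05 ± 0.19, 0.1 ± 0.4 and -0.01 ± 0.12 (SE). The groups of Derl3, a gene of protein quality control in the endoplasmic reticulum, did not overlap in either fit, as for Zbtb20. Derl3 had 2.94 to 6.88 CPM in Chat+ and 0.0 to 2.29 CPM in Chat-. Jchain, which encodes the joining chain of secreted antibody, had 62.7, 160, 15.1, 33.6 and 213 CPM in Chat+ replicates 1 to 5 and 10.1 to 35.8 CPM in Chat-. The part of such cells in the Zbtb20 level was not tested.

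The 250 bases upstream of the Zbtb20 start in RefSeq (GRCm38.p6, chr16:43247034-43247283, plus strand) are shown because this is the member whose groups did not overlap. The start lies 371403 bases inside the GENCODE gene, so it serves one of several promoters, and 0 of the 250 bases fall in a GENCODE exon of the gene. The window was searched on both strands for 3 short motifs: the Runx site TGTGGT, the E-box CAGGTG that Zeb proteins recognise and the T-box half-site GGTGTG, of which the E-box and the half-site can overlap. The capitals mark the single match, a Runx site.
Zbtb20 upstream: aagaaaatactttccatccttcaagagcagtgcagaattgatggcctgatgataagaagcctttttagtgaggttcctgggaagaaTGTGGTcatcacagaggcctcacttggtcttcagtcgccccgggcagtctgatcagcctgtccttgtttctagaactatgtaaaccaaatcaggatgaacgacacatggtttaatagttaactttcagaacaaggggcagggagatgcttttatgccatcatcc
Of 32851 RefSeq windows of this length, 14.0% held a Runx site, 17.2% the E-box and 16.3% the T-box half-site. A match is a description of the letters and not evidence of binding.

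Genes of the Zbtb family, zinc finger factors with a BTB domain, were taken from a list of 9, Zbtb20 among them, of which 8 were measured. With limma, 0 of the 8 passed over all genes. At an unadjusted p under 0.05, 2 were higher in Chat+ (Zbtb20 and Zbtb32) and 0 lower, and both had groups that did not overlap. Over all genes, 3.49% were higher at that level, 1.01% lower and 1.12% higher without overlap. Zbtb32, which restrains memory recall responses in mice, averaged 13.7 ± 7.34 CPM in Chat+ against 2.86 ± 1.35 in Chat- (SD, n = 5; limma adjusted p = 0.17). The list's median log2 fold change was 0.06, close to the 0.04 of all genes.

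Nt5e encodes the ectoenzyme CD73, which turns extracellular AMP into adenosine and marks a share of mouse memory B cells. It lies on chromosome 9 at 88327197 to 88372092 on the plus strand (GRCm38; ENSMUSG00000032420). The Chat+ libraries held 3.93, 5.79, 3.60, 7.42 and 10.8 CPM for replicates 1 to 5, and the Chat- libraries 2.17, 3.77, 1.13, 6.88 and 2.73 CPM. All 5 Chat+ libraries lay above the Chat- median, and 2 lay above every Chat- library. The means were 6.30 ± 2.93 and 3.33 ± 2.20 CPM (SD, n = 5), and the fold was 2.01 on the log2(CPM + offset) scale (95% confidence interval 0.998 to 4.07). It did not pass (limma adjusted p = 1, exact two-sided permutation p = 0.079). At 32 to 278 estimated reads per library, counting error adds to this spread.

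The highest Chat- value of Nt5e came from Chat- replicate 4. Without that library, the Chat- mean was 2.45 ± 1.10 CPM (SD, n = 4) and the fold was 2.50 (95% confidence interval 1.35 to 4.65; limma adjusted p = 0.39). Mesenchymal stromal cells also express Nt5e, so a collagen gene of such cells is set beside it. Col1a1 stood at 111 CPM in Chat- replicate 4 and at 7.59 to 12.4 CPM in the other Chat- libraries. In Chat+ replicates 1 to 5, Col1a1 had 16.3, 42.4, 40.8, 8.40 and 38.5 CPM, beside the Nt5e values above. The highest Nt5e (replicate 5) thus fell on a high Col1a1 and the lowest (replicate 3) on a high one too, while the second highest Nt5e (replicate 4) fell on the lowest Col1a1. Of the 10 listed stromal, bone and endothelial markers, 0 were higher in Chat+ at an unadjusted p under 0.05 with all libraries (3.49% of all genes). In the fit without Chat- replicate 4, which gave the 2.50-fold difference of Nt5e, 4 of the 10 were higher (Col1a1, Col1a2, Col3a1 and Postn; 5.36% of all genes). There 0 were lower (1.97%). That library had the highest level of 7 of the 10, so leaving it out lowers their Chat- means. The summed level of these 10 markers was 283 to 396 CPM in Chat+ and 298 to 519 CPM in Chat- (298 to 318 CPM without replicate 4), and its part in the Nt5e levels was not tested. Most of that sum in the other libraries was Pecam1, which B cells also express.

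Genes that make, clear or sense extracellular adenosine were taken from a list of 12, with 10 measured. With limma, 0 of the 10 passed over all genes, and 1 was higher and 0 lower at an unadjusted p under 0.05, against 3.49% and 1.01% of all genes. The higher one was Adora2a, the adenosine receptor gene that raises cAMP, with 27.3 ± 9.41 CPM in Chat+ against 16.5 ± 3.52 in Chat- (SD, n = 5; fold change on the log2 scale 0.68 ± 0.25, SE; limma adjusted p = 0.95). Entpd1, whose product CD39 supplies AMP to CD73, had 30.9 ± 9.02 against 26.7 ± 9.03 CPM (limma adjusted p = 1). The list's median log2 fold change was 0.13. Without Chat- replicate 4, Nt5e, Adora2a and the adenosine kinase gene Adk were the 3 at an unadjusted p under 0.05, all higher, where 5.36% of all genes were.

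Cd38 encodes an ectoenzyme that breaks down NAD, and in mice it is high on naive and memory B cells and low on germinal centre cells. It lies on chromosome 5 at 43868553 to 43912375 on the plus strand (GRCm38; ENSMUSG00000029084). The Chat+ libraries held 286, 236, 340, 250 and 312 CPM for replicates 1 to 5, and the Chat- libraries 295, 233, 245, 381 and 259 CPM. The groups overlapped almost fully, with the highest value in Chat- replicate 4. The means were 285 ± 42.9 and 283 ± 59.6 CPM (SD, n = 5), a fold of 1.02 (95% confidence interval 0.814 to 1.27; limma adjusted p = 1). This was the narrowest interval of the 6, and it leaves out a difference above 1.27-fold in Chat+. The fold was 1.10 (0.921 to 1.31) without Chat- replicate 4.

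In a list of 14 genes that make or use NAD or sense ADP-ribose, all were measured and 0 passed over all genes with limma. At an unadjusted p under 0.05, 1 was higher and 0 were lower, against 3.49% and 1.01% of all genes. The list's median log2 fold change was -0.01. The one was Trpm2, an ADP-ribose-gated cation channel, with 5.53 ± 1.24 CPM in Chat+ against 3.39 ± 1.07 in Chat- (SD, n = 5; limma adjusted p = 1). Bst1, the paralog of Cd38, had 1.81 ± 0.874 against 2.17 ± 0.812 CPM (limma adjusted p = 1).

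**Figure D2:**
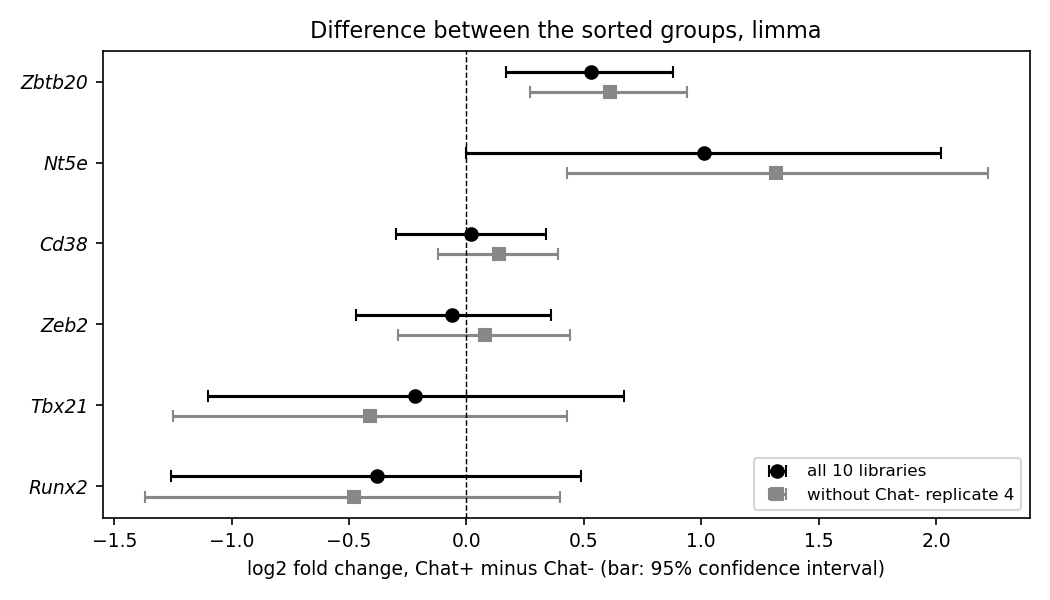
Log2 fold change of each of the 6 genes (Chat+ minus Chat-, horizontal axis) with its 95% confidence interval from limma, for all 10 libraries (black) and without Chat- replicate 4 (grey). The interval of Zbtb20 lies above 0 in both fits and that of Nt5e only without that library (0.43 to 2.22).

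Tbx21, on chromosome 11 (minus strand, 97098071 to 97115331, GRCm38; ENSMUSG00000001444), was low in both groups, which overlapped. The Chat+ libraries held 4.70, 4.55, 1.31, 3.39 and 3.99 CPM for replicates 1 to 5, and the Chat- libraries 3.08, 4.54, 4.54, 2.23 and 5.89 CPM. Chat+ replicate 3 was the lowest of all and Chat- replicate 5 the highest, and 0 Chat+ libraries lay above every Chat- library. The means were 3.59 ± 1.37 and 4.06 ± 1.43 CPM (SD, n = 5), a log2 fold change of -0.22 ± 0.41 (SE; limma adjusted p = 1, exact permutation p = 0.65). The fold of 0.860 had a 95% confidence interval of 0.466 to 1.59, so a difference of that size either way was not detectable here. These levels rest on 36 to 177 estimated reads per library. The log2 fold change was -0.41 ± 0.39 without Chat- replicate 4.

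Natural killer and T cells also use T-bet. Of 14 markers of those cells, 2 were among the listed genes (Cd4 and Prf1), with a summed level of 1.38 to 3.81 CPM in Chat+ and 0.0 to 3.36 CPM in Chat-. The part of such cells in the Tbx21 level was not tested.

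The upstream window of Tbx21 (RefSeq, GRCm38.p6, chr11:97115332-97115581, minus strand) is shown because Zeb2, the partner of T-bet, encodes a protein that recognises E-boxes. It adjoins the start of the GENCODE gene and held 1 E-box match, in capitals, 0 Runx sites and 0 T-box half-sites.
Tbx21 upstream: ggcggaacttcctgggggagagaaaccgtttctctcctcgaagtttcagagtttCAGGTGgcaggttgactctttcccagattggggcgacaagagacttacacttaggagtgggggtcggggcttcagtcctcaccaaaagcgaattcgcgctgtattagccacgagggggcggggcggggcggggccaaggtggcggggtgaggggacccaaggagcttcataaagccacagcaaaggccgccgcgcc
RefSeq gives 4 starts of Zeb2. The window upstream of the outermost start held 0 matches to the 3 motifs, and each of the 3 windows at internal starts, of which a pair overlap, held 1 T-box half-site.

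Zeb2, on chromosome 2 (minus strand, 44983632 to 45117395, GRCm38; ENSMUSG00000026872), encodes a zinc finger and homeobox repressor. In mouse and human B cells it is needed for the T-bet-associated subset. The Chat+ libraries held 32.0, 32.1, 29.1, 31.6 and 46.3 CPM for replicates 1 to 5, and the Chat- libraries 37.5, 27.9, 26.0, 50.4 and 38.6 CPM. Chat+ replicate 5 and Chat- replicate 4 were the high ones in their groups, and the groups overlapped. The means were 34.2 ± 6.86 and 36.1 ± 9.78 CPM (SD, n = 5), a fold of 0.963 (95% confidence interval 0.721 to 1.28; limma adjusted p = 1). Without Chat- replicate 4, the direction turned, with a fold of 1.05 (0.819 to 1.36; limma adjusted p = 0.96).

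Macrophages express Zeb2 too, and the summed level of their markers was highest in the library with the highest Zeb2. Csf1r, the receptor gene of the macrophage growth factor, had 26.7 CPM in Chat- replicate 4 against 1.83 to 2.46 CPM in the other Chat- libraries and 0.775 to 8.13 CPM in Chat+. The summed level of the 11 listed monocyte and macrophage markers was 61.3 to 109 CPM in Chat+, and 44.1 to 64.8 CPM in Chat- without replicate 4, which had 224 CPM. In Chat+ replicates 1 to 5 the sum was 61.5, 99.9, 109, 61.3 and 92.0 CPM. Its highest Chat+ value (replicate 3) thus fell on the lowest Chat+ Zeb2 (29.1 CPM). The highest Chat+ Zeb2 (46.3 CPM, replicate 5) fell on a sum of 92.0 CPM. With all libraries, 0 of the 11 were higher in Chat+ (3.49% of all genes) and 1 was lower (Vcam1; 1.01%) at an unadjusted p under 0.05. In the fit without Chat- replicate 4, where Zeb2 turned, 5 of the 11 were higher (Adgre1, Lyz2, C1qa, C1qb and C1qc; 5.36% of all genes). There 0 were lower (1.97%). That library had the highest level of 9 of the 11, so leaving it out lowers their Chat- means. Their part in the Zeb2 level was not tested.

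A list of 11 genes held Zeb2 itself, its paralog and corepressors, E proteins, Id proteins and Mef2 factors. Of the 11, 0 passed over all genes with limma, and 0 had an unadjusted p under 0.05 in either direction. The smallest p was that of Mef2c, a MADS-box factor of B cells, with 426 ± 49.2 CPM in Chat+ against 495 ± 54.6 in Chat- (SD, n = 5; limma adjusted p = 1). Zeb1, the paralog, had 53.1 ± 3.19 against 57.0 ± 8.98 CPM (limma adjusted p = 1).

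Runx2, on chromosome 17 (minus strand, 44495987 to 44814797, GRCm38; ENSMUSG00000039153), was low in both groups. The Chat+ libraries held 3.25, 1.51, 1.86, 2.91 and 2.67 CPM for replicates 1 to 5, and the Chat- libraries 6.41, 4.13, 1.85, 2.32 and 2.50 CPM. Chat- replicates 1 and 2 were above every Chat+ library, and the other 3 Chat- libraries lay inside the Chat+ range. The means were 2.44 ± 0.729 and 3.44 ± 1.87 CPM (SD, n = 5), a log2 fold change of -0.38 ± 0.40 (SE; limma adjusted p = 1, exact permutation p = 0.35). The 95% confidence interval of the fold was wide, at 0.417 to 1.41. These levels rest on 44 to 162 estimated reads per library. The annotated span of Supt3, a listed gene, overlaps that of Runx2 on the opposite strand, and overlap of their exons was not tested. The Salmon strand setting is not given in the sources used here.

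Plasmacytoid dendritic cells express Runx2, and their surface lectin gene Siglech was set beside it. Siglech ranged from 1.25 (replicate 4) to 7.26 CPM (replicate 5) over the Chat- libraries and from 0.551 to 2.12 CPM over the Chat+ libraries. It was below the Chat- median in all 5 Chat+ libraries and did not pass (limma adjusted p = 0.83). In Chat+ replicates 1 to 5, Siglech had 2.12, 0.551, 0.728, 1.96 and 1.52 CPM, which ranks these libraries in the same order as Runx2. In Chat- replicates 1 to 5, Siglech had 4.37, 4.76, 4.0, 1.25 and 7.26 CPM, in another order than Runx2. There the highest Siglech (replicate 5) did not fall on the highest Runx2 (replicate 1). Over the 8 listed markers of these cells, 2 were lower in Chat+ at an unadjusted p under 0.05 (1.01% of all genes) and 0 higher. Leaving out Chat- replicate 4 raised the lower ones to 5 of 8 (Siglech, Cox6a2, Pacsin1, Klk1 and Irf8; 1.97% of all genes). Markers whose groups did not overlap, with Chat+ below, went from 1 (0.304% of all genes) to 3 (0.941%). The 1 was Cox6a2, a barely detected gene, at 0.0 to 0.0388 CPM in Chat+ and 0.458 to 1.53 CPM in Chat-. Without Chat- replicate 4, Runx2 had a log2 fold change of -0.48 ± 0.40 (SE; limma adjusted p = 0.88). The summed level of the 8 markers, mostly Tcf4 and Irf8, which B cells also express, was 622 to 789 CPM in Chat+ and 585 to 819 CPM in Chat-. Their part in the Runx2 level was not tested. Osteoblasts express Runx2 as well, and their part in its level was likewise not tested.

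Runx proteins bind DNA with the partner encoded by Cbfb. Of 10 genes of the Runx family and its partners, 9 were measured, 0 passed over all genes with limma, and 0 had an unadjusted p under 0.05. Runx1 and Runx3, the paralogs, had 87.4 ± 15.1 against 91.2 ± 17.4 CPM and 82.1 ± 9.06 against 78.7 ± 10.6 CPM (SD, n = 5, Chat+ first). Cbfb, with the smallest p of the list, had 158 ± 10.3 against 176 ± 15.4 CPM (limma adjusted p = 1).

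Wider lists placed the 6 genes among other memory and T-bet genes. The lists were chosen with earlier results of these data known, so a share above that of all genes may come from the choice. In the memory list of 15 genes, all measured, 0 passed over all genes with limma. At an unadjusted p under 0.05, 5 were higher in Chat+ (3.49% of all genes were) and 1 was lower (1.01%). The median log2 fold change of the list was 0.17, against 0.04 for all genes. The higher ones were Cd80, Zbtb32, Zbtb20, Itgb1 and Vim, and 4 of the 15 had groups that did not overlap (1.12% of all genes). Cd80 encodes a costimulatory ligand, and its level was 10.4 ± 2.05 CPM in Chat+ against 2.36 ± 1.03 in Chat- (SD, n = 5; 2.26 ± 0.42 on the log2 scale, SE; limma adjusted p = 0.16). It passed without Chat- replicate 4. Pdcd1lg2, whose product PD-L2 is used beside CD80 and CD73 to sort memory subsets in mice, had 14.3 ± 1.70 against 13.2 ± 1.36 CPM (limma adjusted p = 1).

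Itgb1, an integrin chain, averaged 81.2 ± 15.7 CPM in Chat+ against 55.3 ± 8.64 in Chat- (SD, n = 5; limma adjusted p = 0.47). Vim, an intermediate filament gene, had 626 ± 37.9 against 518 ± 40.2 CPM (limma adjusted p = 0.82). The 1 lower gene was Bach2, a repressor that favours memory over plasma cell fate, with 278 ± 35.9 against 338 ± 45.9 CPM (limma adjusted p = 1). Without Chat- replicate 4, 6 were higher and 1 was lower (5.36% and 1.97% of all genes). The lower one there was Hhex, a homeobox gene required for mouse memory B cells, and no longer Bach2.

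In the list of 17 genes of the T-bet programme and age-associated B cells, all measured, 0 passed over all genes with limma. At an unadjusted p under 0.05, 1 was higher and 0 were lower, against 3.49% and 1.01% of all genes. The median log2 fold change was -0.05. The 1 higher gene was Fcrl5, an Fc receptor-like gene, with 47.6 ± 35.0 CPM in Chat+ against 15.9 ± 9.96 in Chat- (SD, n = 5; 1.51 ± 0.42 on the log2 scale, SE; limma adjusted p = 0.49). Innate-like B cells express Fcrl5 as well. Itgax, which encodes CD11c, averaged 1.38 ± 1.07 against 1.70 ± 2.62 CPM, and 6.32 CPM in Chat- replicate 4 (limma adjusted p = 1). Cxcr3, a chemokine receptor gene under T-bet control, had 2.56 ± 1.98 against 1.51 ± 1.72 CPM (limma adjusted p = 1). Without Chat- replicate 4, 2 were higher (Fcrl5 and Tlr7; 5.36% of all genes) and 1 was lower (Il21r; 1.97%).

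**Figure D3:**
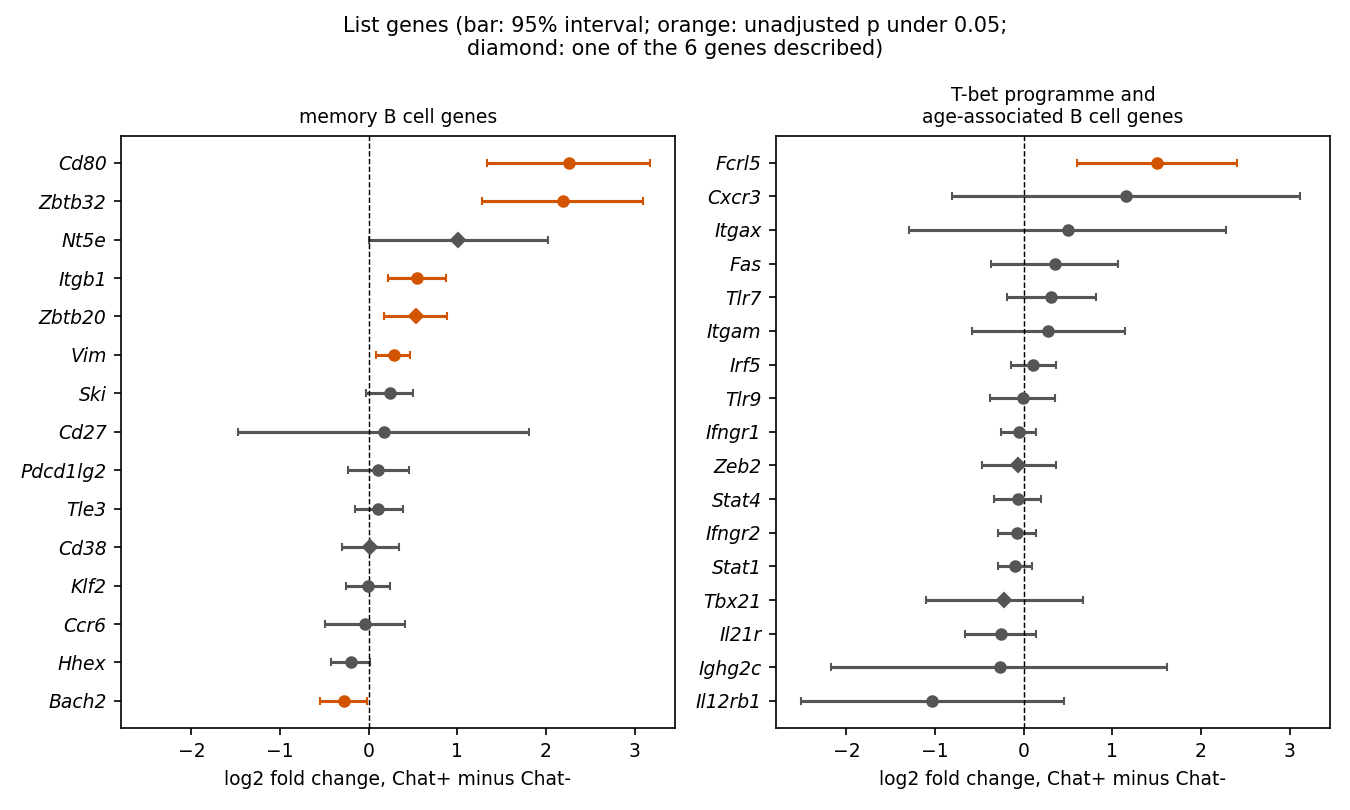
Log2 fold change (Chat+ minus Chat-, horizontal axis) with 95% confidence intervals from limma for the 15 memory genes (left) and the 17 genes of the T-bet programme (right), orange where the unadjusted p was under 0.05 and diamonds for the 6 genes described. Orange marks 6 genes on the left and 1, Fcrl5, on the right.

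The 6 genes differed in how much they varied between libraries of 1 group. Cd38 had a coefficient of variation of 15.0% in Chat+ and 21.1% in Chat-, and Zbtb20 of 16.5% and 21.0%. The low genes varied more, with 46.5% and 65.9% for Nt5e, 38.3% and 35.1% for Tbx21, and 29.9% and 54.3% for Runx2. Zeb2 lay between them in Chat-, with 27.1% there. Among the Chat- libraries, replicate 4 was the highest for 4 of the 6 genes (Cd38, Nt5e, Zbtb20 and Zeb2) and the lowest for Tbx21. Among the Chat+ libraries, replicate 3 was the lowest for 4 of the 6 (Nt5e, Tbx21, Zbtb20 and Zeb2).

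**Figure D4:**
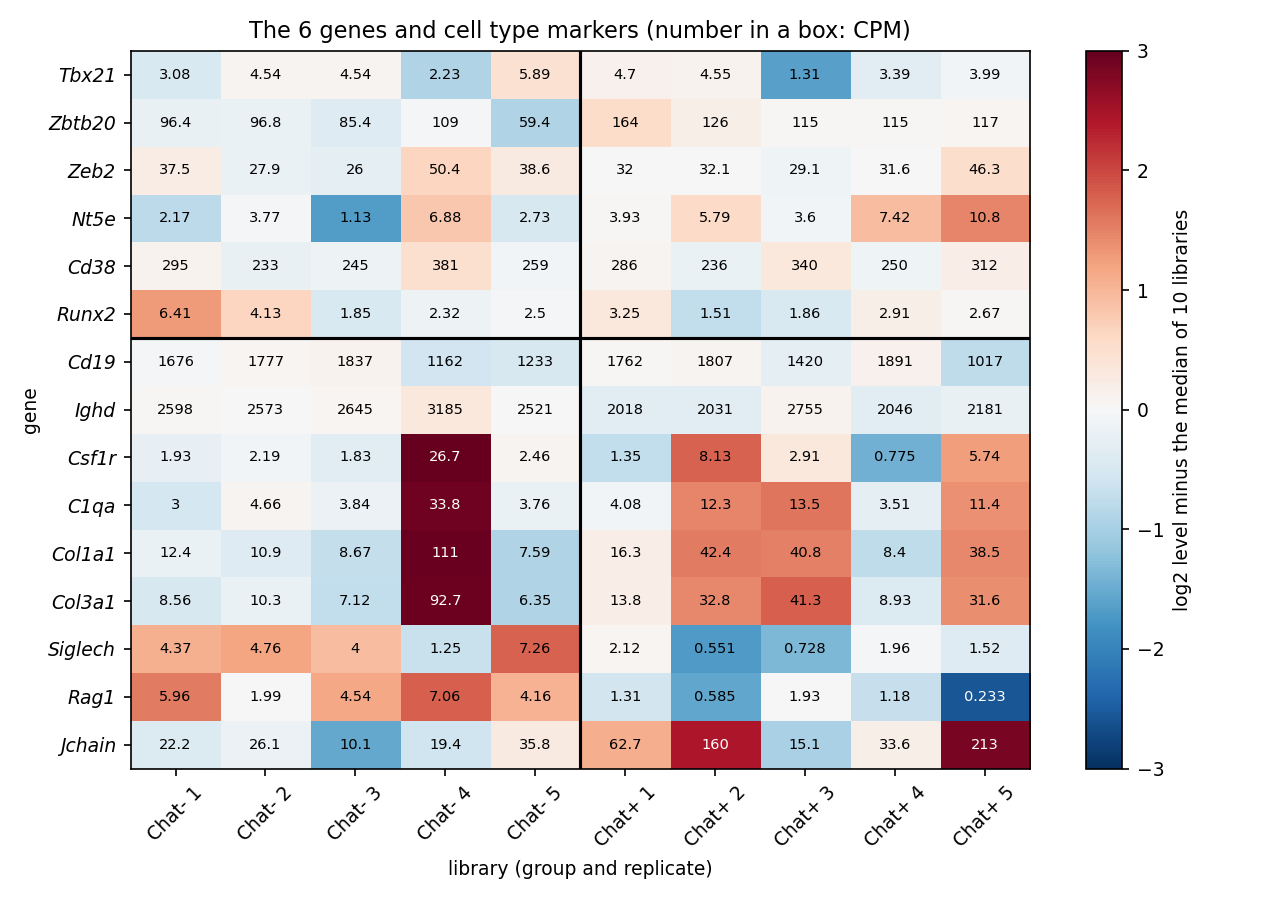
Level in CPM (number in each box) of the 6 genes (above the line) and of 9 markers (below), in the 5 Chat- and 5 Chat+ libraries, coloured by the log2 difference from the median of all 10. Chat- replicate 4 is darkest for the macrophage genes Csf1r and C1qa (26.7 and 33.8 CPM) and the collagen genes Col1a1 and Col3a1 (111 and 92.7 CPM).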

How the data were processed

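Per the labels' protocols, total RNA (Qiagen RNeasy Plus Micro) went into strand-specific NEBNext libraries. The submitters' processing notes name cutadapt 2.6, Salmon 0.14.2 and GRCm38.p6. The deposited values are log2 values: all libraries share the lowest value, -3.1228, and with that offset (0.1148 CPM) removed each library sums to 1000000 CPM. Depth was estimated from the step between low values. Only 39.2% to 45.5% of values under 1 CPM were whole reads within 0.003, so no count model was used.

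Members and lists were chosen with earlier results of these data known. limma 3.58.1 (R 4.3.3) was run on all 14450 genes (lmFit, then eBayes with a trend), the group as the only term and Benjamini-Hochberg adjustment (threshold 0.05), and was tested on simulated data. The simulated libraries had equal spread, so that trial does not cover a library that stands apart, such as Chat- replicate 4. Folds come from log2(CPM + offset) and so understate changes of genes near the offset. CPM means and SDs had the offset removed. Single genes also had an exact two-sided permutation test. Symbols were matched for 14374 identifiers, and coordinates are from GENCODE M21. Of the 31-base words of the 6 genes, 0.0% to 2.49% occur in other genes. Named were all members, their paralogs and Entpd1, list genes with an unadjusted p under 0.05 or else the smallest p, and the 2 protein-coding genes most like each member. Pdcd1lg2, Itgax, Cxcr3 and the marker genes were named after their values were seen, as was the alternative for list counts. Alternatives were another offset, a filter at 1 CPM, median-of-ratios scaling, no trend, library quality weights, a replicate block and each library left out. Tables and figures used Python 3.11.15, numpy 2.4.6, pandas 2.3.3 and matplotlib 3.10.9.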

Additional observations from a re-analysis of the deposited data

Results flagged for a closer look

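Zbtb20 in Chat+ replicate 1, at 164 CPM, lay far above the other Chat+ libraries, whose highest was 126 CPM. The gap was 0.769 of the group's whole range. Without that library, the log2 fold change of Zbtb20 was 0.43 (limma adjusted p = 1). Zeb2 in Chat+ replicate 5, at 46.3 CPM, lay apart in the same way, with a gap of 0.824 of the range. Without it, the log2 fold change of Zeb2 was -0.17. Chance alone gives about 1 such library in 20 groups, and 12 groups were tested.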

How the results depend on the processing

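Under 16 alternatives per gene, 0 of the 6 genes passed over all genes with limma. The direction held in all 16 for Zbtb20, Nt5e and Runx2. The adjusted p of Zbtb20 ranged from 0.077, with library quality weights, to 1, and that of Nt5e from 0.21 to 1. The log2 fold change of Zeb2 turned to 0.11 with library quality weights, and that of Cd38 to -0.02 with median-of-ratios scaling, which moved the median of all genes from 0.04 to -0.01. With 1 library left out, values ranged from -0.41 to 0.10 for Tbx21 (turned without Chat+ replicate 3), from -0.17 to 0.08 for Zeb2 (turned without Chat- replicate 4) and from -0.04 to 0.14 for Cd38 (turned without 5 of the libraries). The count of genes called was 1 to 6 with 1 library left out (6 without Chat+ replicate 5 or Chat- replicate 4, and 2 without Chat- replicate 1 or 3). It was 3 without the trend, 105 with library quality weights and 6 with the replicate block. With the block, Zbtb20 had an adjusted p of 0.55 and Nt5e of 0.89. The labels do not say that equal numbers mark one animal: own-number correlations of deviations were -0.2 to 0.23, and 3 of 5 Chat+ libraries correlated best with their own number. Tbx21, Nt5e and Runx2 had a few CPM each, and the part of depth in their spread was not tested.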

Other observations

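The genes whose deviations from the group means were most like those of each member over the 10 libraries, among 11101 named protein-coding genes with a mean of at least 1 CPM, are given as a description, since so wide a search always returns close matches. For Tbx21 they were Zfp341 and Stx6, for Zbtb20 C5ar2 and Slc22a5, and for Zeb2 Vmp1 and Rps15a. For Nt5e they were Atxn1 and Rnf2, for Cd38 Smarcad1 and Cd47, and for Runx2 Atxn7l3b and Zfp322a. Atxn1, a transcriptional repressor gene, was also higher in Chat+ at a mean of 25.5 against 13.0 CPM (log2 fold change 0.96), without passing over all genes. C5ar2, a complement receptor gene, averaged 1.26 CPM in Chat+ against 3.16 in Chat-, opposite in direction to Zbtb20.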
